A study of Mus musculus with 3 samples.

Results

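Platelet-derived growth factors and vascular endothelial growth factors were followed through the cells of mouse prefrontal cortex by means of 9 genes, taken by name from a table of 20368 genes. The ligand genes were Pdgfa, Pdgfb, Pdgfc and Vegfa. The receptor genes were Pdgfra, Pdgfrb, Flt1, Kdr and the co-receptor Nrp1. All 9 were in the table, and the list was drawn up with earlier results of these data known. The tissue came from mice of both sexes that inhaled about 3% sevoflurane, a volatile anaesthetic, once on postnatal day 6 and were killed on that day. There were 3 libraries of single cells in 1 group and no unexposed group, so the values describe exposed cortex only and hold no effect of the drug. Nothing in the labels ties a library to an animal of its own, so each p-value below measures only the spread between libraries, which may be technical. That spread was estimated once per gene over all cell classes of a fit, not weighted by number of cells. The p-values of classes with few cells therefore rest largely on the spread of larger classes. The labels name neither a strain nor the length of the exposure.

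PDGF ligands act as dimers on 2 receptor tyrosine kinases. PDGF-A acts through the alpha receptor and drives the growth and survival of oligodendrocyte precursors, and PDGF-B made by endothelium recruits pericytes, which carry the beta receptor. VEGF-A, induced when oxygen is low, makes vessels sprout through VEGFR2, the product of Kdr. VEGFR1, the product of Flt1, binds VEGF-A tightly, signals weakly and can be made as a soluble decoy, and neuropilin-1, from Nrp1, is a co-receptor for VEGF-A that also binds class 3 semaphorins.

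Cells were put in classes by pairs of genes, both above 0: Aqp4 and Gja1 for astrocytes, C1ql1 and Lhfpl3 for oligodendrocyte precursors, Mag and Mobp for oligodendrocytes, Dlx1 and Sp9 for neuroblasts, P2ry12 and Csf1r for microglia, Cldn5 and Pecam1 for endothelium, Kcnj8 and Vtn for pericytes, Acta2 and Myh11 for smooth muscle. Of 14192 cells, 11515 (81.1%) fell in 1 class, 765 in several and were dropped, and 1912 in none. The classes held 3450 astrocytes, 2974 precursors, 1809 neuroblasts, 1625 microglia, 833 pericytes, 754 endothelial cells, 45 smooth muscle cells and 25 oligodendrocytes. Levels are corrected counts per 1000000 of a cell's total (CPM), averaged over the cells of a class to give 1 value per library. The fold changes are differences of log2(CPM + 10), which understates the change of low genes. Of 32 further markers, 28 were highest in the class they mark. The exceptions were Cspg4, higher in pericytes than in precursors, Sox10, higher in oligodendrocytes than in precursors, and Rgs5 and Notch3, higher in smooth muscle than in pericytes. No gate was set for excitatory neurons. Their 4 markers (Neurod6, Tbr1, Neurod2 and Bhlhe22) summed to means of 13.8 CPM or less in each class. Shares of counts and highest classes below therefore describe the captured cells and not the whole cortex. Libraries held 4283 to 5134 cells with medians of 2502 to 2603 detected genes, and 90 barcode sequences (180 cells) occurred in more than 1 library. Transcripts of 4 red cell genes (Hbb-bs, Hba-a1, Hbb-bt and Alas2) summed to 15315 to 16745 CPM in endothelium, 2039 to 8489 in pericytes and 156 to 661 in smooth muscle and oligodendrocytes. They were at 1352 to 9511 in the other classes, and their part in the levels below was not tested. Of 4 ependymal markers, Foxj1, Ccdc153 and Tmem212 were highest in astrocytes and Rarres2 in smooth muscle. The 4 summed to 345, 71.5 and 41.2 CPM in the astrocytes of libraries 1, 2 and 3. The part of ependymal cells in the astrocyte levels was not tested either.

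Pdgfra, Kdr and Flt1 lie on the same chromosome, and each was high in 1 class. Their upstream sequences are printed to show what the start regions of the precursor receptor and the endothelial receptors hold. In GRCm38 with GENCODE vM21 annotation, Pdgfra spans positions 75152292 to 75198215 of chromosome 5 on the plus strand, Kdr 75932827 to 75978458 and Flt1 147561604 to 147726011, both on the minus strand. Each sequence is the 250 bases before the RefSeq start (GRCm38.p6), 5′ to 3′ on the gene's strand, with capitals marking GGAA or its complement TTCC, the core that ETS factors bind.
Flt1, chr5:147726012-147726261: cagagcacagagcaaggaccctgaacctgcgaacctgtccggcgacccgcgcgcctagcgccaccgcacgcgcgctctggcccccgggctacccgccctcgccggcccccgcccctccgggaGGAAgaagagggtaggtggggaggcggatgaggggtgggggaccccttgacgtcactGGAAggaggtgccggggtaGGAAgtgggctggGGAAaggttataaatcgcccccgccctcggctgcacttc
Kdr, chr5:75978456-75978705: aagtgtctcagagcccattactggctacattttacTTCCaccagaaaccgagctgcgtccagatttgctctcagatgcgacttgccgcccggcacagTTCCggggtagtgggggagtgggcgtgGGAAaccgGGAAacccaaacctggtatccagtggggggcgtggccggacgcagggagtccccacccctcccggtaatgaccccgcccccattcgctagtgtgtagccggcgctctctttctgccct
Pdgfra, chr5:75152001-75152250: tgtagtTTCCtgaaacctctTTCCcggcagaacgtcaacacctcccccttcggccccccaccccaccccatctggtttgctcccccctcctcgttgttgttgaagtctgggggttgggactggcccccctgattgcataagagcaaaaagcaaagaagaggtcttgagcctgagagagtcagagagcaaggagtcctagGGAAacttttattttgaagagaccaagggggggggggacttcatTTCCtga
GGAA occurred 4 times on either strand in each of the 3 windows, and in 93.5% of 32841 windows of the same length, with a median of 3. The GC box GGGCGG occurred 3 times in Flt1, 2 times in Kdr and not in Pdgfra, against 32.7% of windows with at least 1. TATAAA was found in the Flt1 window and not in the others (12.4% of windows). TGACGT, which can overlap its own complement, gave 2 matches in Flt1, 1 in Pdgfra and none in Kdr (6.47% of windows). These matches describe letters only. Entries existed for 7 of the 9 genes, all but Pdgfb and Pdgfrb, with 2 start sites each for Pdgfa and Vegfa.

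**Figure D1:**
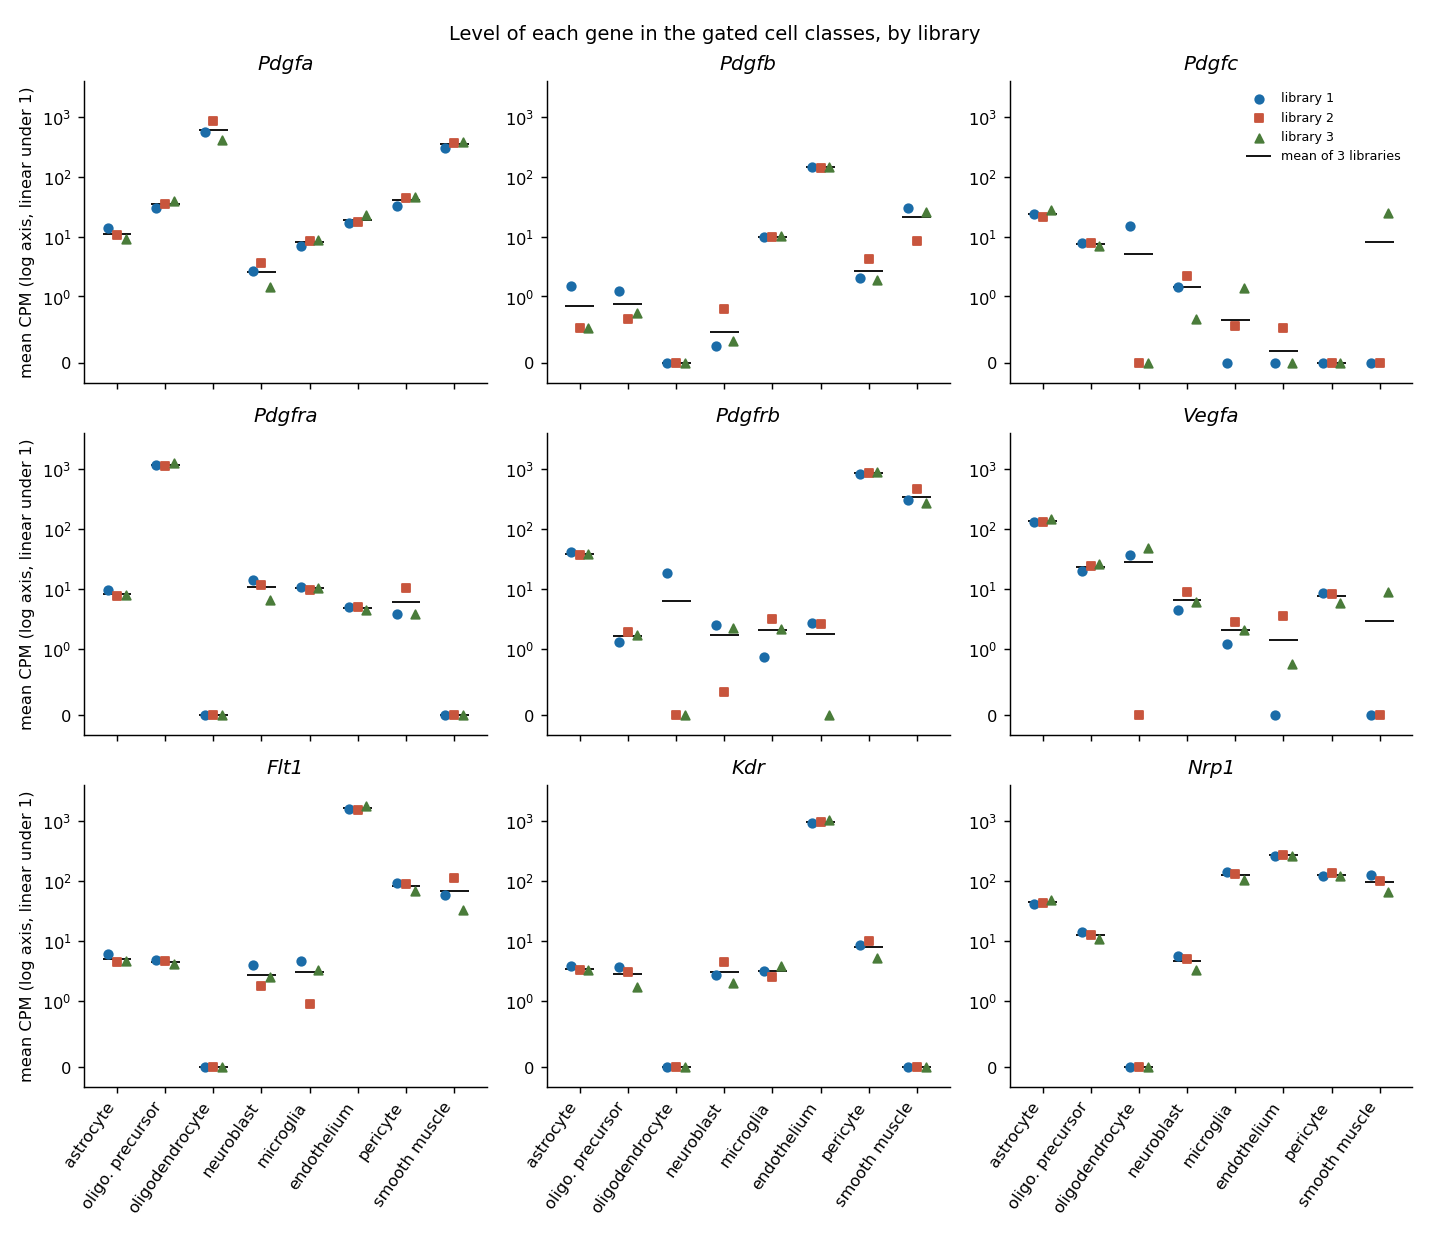
Mean CPM of the 9 genes (vertical log axis, linear under 1) in each gated class (horizontal axis), with 1 symbol per library and a black line at the mean of 3 libraries. Pdgfra, Kdr, Flt1 and Pdgfb each stand high in 1 class, while Pdgfa is highest in oligodendrocytes (611) and smooth muscle (352) and Nrp1 is spread over the vascular classes, microglia and astrocytes.

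By highest level per cell among the gated classes, the sending classes were oligodendrocytes and smooth muscle for Pdgfa, endothelium for Pdgfb, and astrocytes for Pdgfc and Vegfa. The receiving classes were precursors for Pdgfra, pericytes and then smooth muscle for Pdgfrb, and endothelium for Flt1, Kdr and Nrp1. Means of Nrp1 were also 97.5 to 128 CPM in pericytes, microglia and smooth muscle. These are transcript levels, and neither protein nor binding was measured.

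Among the PDGF ligands, Pdgfa was highest in the cells that had left the precursor state and in smooth muscle. Its level in oligodendrocytes was 556, 856 and 420 CPM in libraries 1, 2 and 3, from 8, 8 and 9 cells, and 24 of the 25 cells were above 0. Smooth muscle cells held 308, 365 and 383 CPM, with 41 of 45 cells above 0. Every library of these classes exceeded all values elsewhere. Pericytes followed at 40.7 ± 7.50 (SD, n = 3) and precursors at 35.0 ± 4.28, which did not differ past the threshold (log2 difference of precursors from pericytes −0.16 ± 0.15 SE, limma adjusted p = 0.368), then endothelium at 19.2 ± 3.31, astrocytes at 11.2 ± 2.41, microglia at 8.15 ± 1.04 and neuroblasts at 2.59 ± 1.13. Precursors were higher than endothelium (0.63 ± 0.15, adjusted p = 0.00150). The step from astrocytes to microglia did not pass (adjusted p = 0.226). Of all Pdgfa corrected counts, 26.8% ± 3.41 were in precursors, 25.1% ± 8.25 in cells of no class, 10.7% ± 2.61 in astrocytes and only 4.84% ± 1.13 and 4.73% ± 1.85 in the small oligodendrocyte and smooth muscle classes. Pdgfa (chromosome 5, 138976014 to 138997370, minus strand) was thus most concentrated per cell in classes that held few of the cells.

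Pdgfb, the ligand that draws mural cells to vessels, was an endothelial transcript. Endothelium held 146, 141 and 144 CPM in the 3 libraries, with 62.5%, 66.1% and 66.8% of cells above 0. Smooth muscle came next at 29.6, 8.53 and 26.2 CPM, from 6 cells above 0, and no library of it reached the endothelial range (log2 difference 2.36 ± 0.19, adjusted p = 1.07e-08). Microglia held 9.86, 9.74 and 10.3 CPM, with 77 of 1625 cells above 0. That small amount repeated in each library and exceeded the 0.854 ± 0.563 of astrocytes (log2 difference 0.88 ± 0.19, adjusted p = 8.05e-04). Microglia had 0.718% ± 0.398 of the endothelial level of Cdh5 and 0.294% ± 0.119 of that of Esam. They had 0.264% ± 0.150 for Ly6c1 and 0.229% ± 0.0452 for Slco1a4, the other endothelial markers. For Pdgfb the share was 6.94% ± 0.189. Pericytes, precursors, neuroblasts and astrocytes had means of 2.71 CPM or less, and Pdgfb was at 0 in all 25 oligodendrocytes, which allows up to 12% of cells with a count. Such limits cover counting error and detection only, since a cell that expresses a low gene can give no count. The gene lies on chromosome 15 (79995874 to 80014977, minus strand).

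Pdgfc, whose product needs cleavage before it binds the alpha receptor, was highest in astrocytes, at 24.0, 21.5 and 27.4 CPM. Precursors held 7.89, 7.96 and 6.87, below every astrocyte library. It was detected in none of the 833 pericytes, which allows up to 0.360% of cells with a count, and in 1 of 754 endothelial cells. Pdgfc (chromosome 3, 81036416 to 81214040) did not reach the mean of 10 CPM over classes that was asked for testing. With no such minimum, precursors were lower than astrocytes by a log2 difference of −0.96 ± 0.30 (adjusted p = 0.0201). In smooth muscle the mean of 8.21 came from 3 cells of library 3.

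Vegfa, the hypoxia-responsive ligand of the VEGF receptors, was highest in astrocytes among the gated classes. They held 133, 131 and 146 CPM, and 76.6% ± 0.422 of the Vegfa corrected counts of the captured cells. Precursors held 19.9, 24.1 and 25.7 CPM, lower in every library (log2 difference −2.15 ± 0.19, adjusted p = 3.10e-08). The 25 oligodendrocytes ranged from 0 in library 2 to 47.3 in library 3. Pericytes (7.49 ± 1.46) and neuroblasts (6.42 ± 2.22) did not differ past the threshold (adjusted p = 0.698). Endothelium, which carries the receptors, held 0, 3.48 and 0.771 CPM, with 7 of 754 cells above 0. Each endothelial library was below each astrocyte library (log2 difference −3.69 ± 0.19, adjusted p = 2.20e-11). Vegfa lies on chromosome 17 (46016993 to 46032369, minus strand).

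On the receptor side, Pdgfra marked precursors. They held 1155, 1132 and 1277 CPM, with 91.6%, 87.9% and 92.4% of cells above 0. Neuroblasts, microglia, astrocytes, pericytes and endothelium held means of 4.75 to 10.8 CPM, with 2.52% to 4.67% of cells above 0, and neighbours in that order did not differ past the threshold (adjusted p from 0.250 to 0.915). Further apart in it, neuroblasts exceeded endothelium (limma adjusted p = 0.0183) and pericytes (0.0484), and microglia exceeded endothelium (0.0242). Neuroblast libraries (14.3, 11.7 and 6.42 CPM) overlapped pericyte libraries (3.84, 10.1 and 3.76). The calls at these low levels were not checked under other settings. The highest library of another class, of neuroblasts, stood at 14.3 CPM, and precursors exceeded neuroblasts by 5.87 ± 0.16 on the log2 scale (adjusted p = 7.26e-15). Pdgfra was at 0 in all 45 smooth muscle cells and all 25 oligodendrocytes, which allows up to 6.67% and 12% of cells with a count. Precursors held 87.7% ± 0.112 of its corrected counts.

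Pdgfrb, the receptor of mural cells (chromosome 18, 61045150 to 61085061), was highest in pericytes at 846, 870 and 881 CPM. Smooth muscle held 303, 465 and 270 CPM, below every pericyte library (log2 difference −1.34 ± 0.16, adjusted p = 2.42e-06). Astrocytes came next at 40.7, 37.2 and 38.5 CPM, with 20.5%, 19.2% and 20.3% of cells above 0. Those astrocyte values were above all libraries of the remaining classes, and precursors, with a similar median of detected genes (2677 against 2762), held 1.63 ± 0.294 CPM and 0.848% ± 0.125 of cells above 0. The astrocyte level of Pdgfrb was 4.48% ± 0.287 of the pericyte level. For other pericyte markers that share was 0.273% ± 0.0724 (Rgs5), 0.183% ± 0.0658 (Abcc9) and 0.177% ± 0.0674 (Higd1b), and 18.6% ± 1.88 for Notch3. The 4 markers summed to 74.6 to 97.7 CPM in astrocytes and 18531 to 20274 in pericytes, and none was at 0 in the astrocytes of any library. Because astrocytes were many, they made up 34.7% ± 5.61 of all cells with Pdgfrb and 13.8% ± 3.35 of its corrected counts.

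The VEGF receptors Flt1 and Kdr were found together in endothelium. Flt1 stood there at 1634, 1575 and 1832 CPM and Kdr at 948, 966 and 1041 CPM, and 98.0% ± 0.487 of endothelial cells had both. The classes parted in the mural cells. Pericytes held Flt1 at 94.3, 90.4 and 67.2 CPM, with 37.2%, 34.8% and 25.5% of cells above 0. Kdr in the same cells was at 8.54, 9.86 and 5.26 CPM, with 3.58% ± 0.798 of cells above 0. Smooth muscle held Flt1 at 59.7, 114 and 32.9 CPM, overlapping pericytes (log2 difference −0.38 ± 0.25, adjusted p = 0.216), and Kdr was detected in none of its 45 cells. In astrocytes, precursors, microglia and neuroblasts Flt1 means were 2.75 to 5.01 CPM with 1.30% to 2.54% of cells above 0.

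Set against its own endothelial level, pericyte Flt1 was 5.06% ± 1.21 and Kdr 0.809% ± 0.270. The endothelial markers Cdh5, Ly6c1 and Slco1a4 were at 0.304% ± 0.0407, 0.753% ± 0.291 and 0.857% ± 0.184 of their endothelial levels in pericytes, close to Kdr. Esam, the fourth, was at 31.9% ± 2.11. The receptor genes Tek and Tie1 stood near Flt1, at 5.65% ± 0.826 and 5.46% ± 0.0999. The 4 markers Cdh5, Ly6c1, Slco1a4 and Esam summed to 467 to 518 CPM in pericytes against 3764 to 4496 in endothelium. In smooth muscle they summed to 485 to 557. Esam, at 1477 CPM in endothelium and 34.6% ± 2.03 of that in smooth muscle, made up most of the sum in both mural classes. How much of the pericyte Flt1 came from endothelial RNA or attached endothelial cells was not tested.

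**Figure D2:**
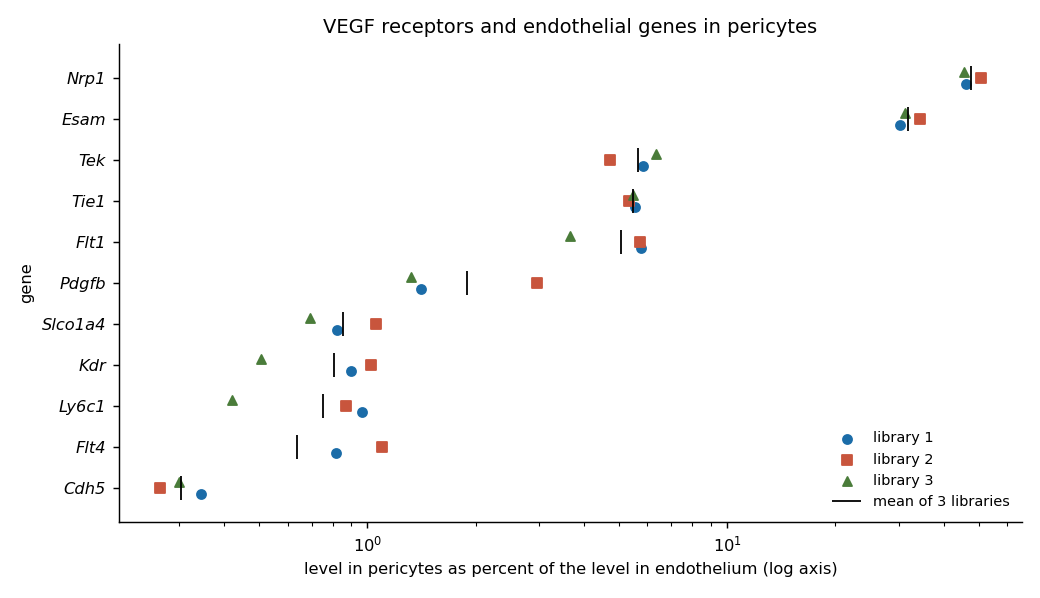
Level of each gene in pericytes as a percent of its level in endothelium (horizontal log axis), with 1 symbol per library and a black line at the mean. Flt1 (mean 5.06%) lies with Tek and Tie1, and Kdr (0.809%) with Ly6c1 and Slco1a4. A value of 0 (Flt4 in library 3) is not drawn.

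Nrp1, the co-receptor (chromosome 8, 128358604 to 128503363), was spread over several classes, and endothelium held 26.4% ± 3.37 of its corrected counts, microglia 22.2% ± 2.59 and astrocytes 18.5% ± 1.57. Endothelium held 268, 272 and 267 CPM, above every other library. Pericytes held 124, 138 and 122 CPM and microglia 145, 131 and 106, ranges that overlapped (log2 difference −0.02 ± 0.14, adjusted p = 0.936). Smooth muscle held 127, 98.7 and 66.7. Astrocytes (44.3 ± 3.58) lay below all of these, precursors at 12.5 ± 1.66 and neuroblasts at 4.62 ± 1.26. The microglial level was 47.3% ± 7.18 of the endothelial one, while Cdh5, Esam, Ly6c1 and Slco1a4 were each at 0.229% to 0.718% of theirs in microglia. Border macrophage markers were present in the microglia gate, whose 4 markers (Mrc1, Pf4, Lyve1 and Cbr2) summed to 490 to 820 CPM. In the 572 microglia with Mrc1, Pf4 and Lyve1 all at 0, Nrp1 was still at 129, 112 and 80.3 CPM. In the 109 with at least 2 of those 3 it was at 193, 236 and 209, above all of the former. The former cells had a median of 1740.5 detected genes and the latter 2253. These subsets were chosen after values had been seen and are given without a test.

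**Figure D3:**
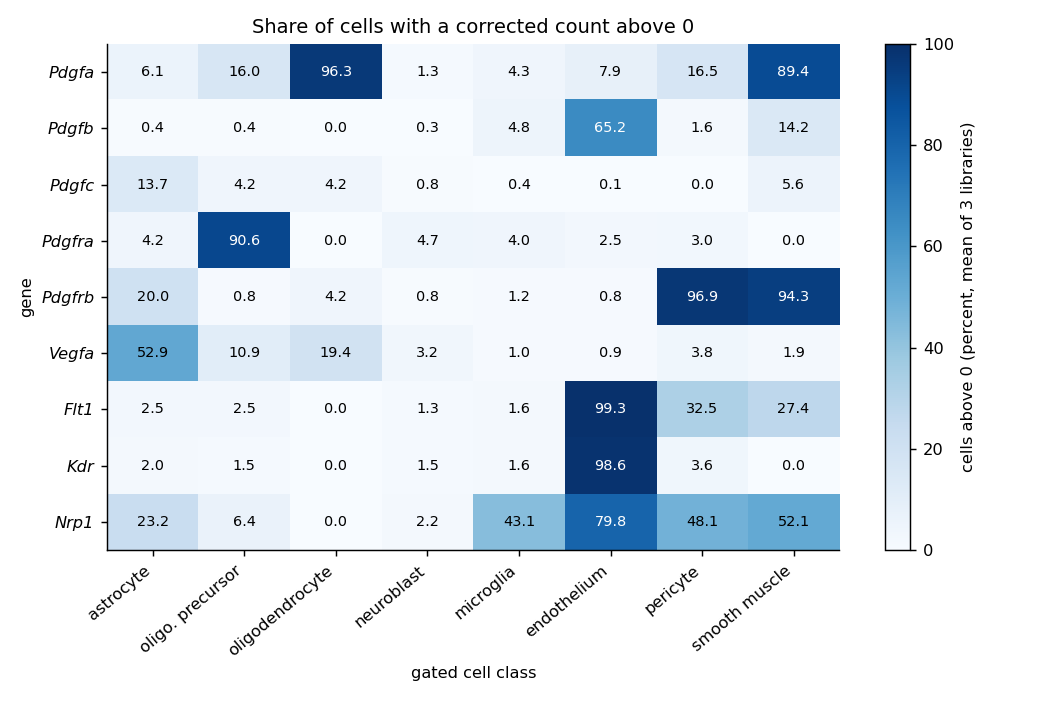
Percent of cells with a corrected count above 0 (colour and printed value, mean of 3 libraries) for each gene and gated class. Pdgfra, Pdgfrb, Flt1 and Kdr exceed 90% in their highest class, as does Pdgfa (96.3%, in 25 oligodendrocytes). Vegfa reaches 52.9% in astrocytes and Pdgfb 65.2% in endothelium.

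Shares of cells depend on depth, and the medians of detected genes per class ran from 1867 in neuroblasts to 2945 in smooth muscle. The counts are read as already corrected for depth. Thinning them evens the corrected totals only and not the original depth, which is unknown. After each cell was thinned to 4000 corrected counts, which left no cell out, Pdgfb was in 44.5% ± 3.08 of endothelial cells (65.2% ± 2.30 before), Vegfa in 40.3% ± 2.66 of astrocytes (52.9% ± 3.23), Pdgfc in 9.27% ± 1.20 of them (13.7% ± 1.66) and Pdgfrb in 13.9% ± 0.734 of them. Pericyte Flt1 was in 25.2% ± 5.54 and microglial Nrp1 in 33.9% ± 5.17 (43.1% ± 7.18 before). By comparison, the thinned share of Flt1 in neuroblasts was 1.09% ± 0.527 and of Nrp1 1.66% ± 0.524. Endothelial Flt1 and Kdr stayed at 98.1% ± 0.798 and 95.5% ± 0.525.

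Set against astrocytes, precursors were higher in Pdgfra and Pdgfa and lower in Vegfa, Pdgfrb and Nrp1. The Pdgfra difference was 6.03 ± 0.16 (SE) on the log2 scale (adjusted p = 5.33e-15), and the Pdgfa difference 1.09 ± 0.15 (adjusted p = 6.35e-06). Pdgfrb stood at −2.07 ± 0.16 (adjusted p = 9.81e-09), and Nrp1 stood at −1.27 ± 0.14 (adjusted p = 8.49e-07). Of the 8 members tested, 5 passed, 2 higher and 3 lower, where 42.2% of all 9780 genes did, 27.2% higher and 15% lower. A member can reach the minimum level through its highest class alone, so such counts support nothing by themselves. Of 10 genes listed for PDGF activation and signalling, 4 were higher and 1 lower (median −0.13, against 0.15 over all genes). Spry4 (2.84 ± 0.31), a feedback inhibitor of receptor tyrosine kinases, Pik3r1 (1.53 ± 0.17), a regulatory subunit of the phosphoinositide kinase, and the ERK phosphatase Dusp6 (1.23 ± 0.28) were higher. The list is not specific to PDGF. Dusp6 was at 467 ± 30.5 CPM in endothelium and 198 ± 6.54 in microglia, where Pdgfra and Pdgfrb had means of 10.2 CPM or less. None of 7 other ligands and receptors was higher and 4 were lower, led by Pdgfrl (−2.23 ± 0.14). Angpt1, the ligand of the Tie2 receptor, was the 1 angiopoietin gene of 5 that passed, at 1.81 ± 0.282 CPM against 64.4 ± 3.08. Of 9 oxygen-response genes 2 were higher, among them Hif1a (1.13 ± 0.16), and 3 lower, among them Slc2a1 (−1.37 ± 0.35) and Vhl (−0.82 ± 0.13). Among semaphorin partners Sema3d passed (83.3 ± 2.68 CPM against 1.01 ± 0.393).

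Pdgfra and Pdgfa ran opposite ways through the oligodendrocyte lineage. Precursors with neither Bcas1 nor Enpp6, genes of newly formed oligodendrocytes, numbered 1550 and held Pdgfra at 1338, 1348 and 1413 CPM. The 217 precursors with both genes held it at 51.8, 65.7 and 89.7, and the 131 cells of no class with both at 2.99, 0 and 6.70. Every library showed the same order. Pdgfa in those subsets went from 24.2, 23.6 and 30.9 CPM to 117, 124 and 167 and then to 279, 234 and 289, with the oligodendrocytes above them all. The share of cells with Pdgfa was 12.6% ± 1.81, 51.7% ± 5.49, 75.7% ± 9.90 and 96.3% ± 6.42 in that sequence. Median detected genes were 2573, 3118, 3017 and 2712. Myelin basic protein, Mbp, was at 43.2 ± 6.02, 3147 ± 1806, 14288 ± 2233 and 45371 ± 6011 CPM, and Dusp6 at 207 ± 16.7, 15.9 ± 3.28, 0.976 ± 1.69 and 0. The subsets were drawn after values had been seen, so no test is given. Within the whole precursor gate, Pdgfa was detected in 12.3%, 13.3% and 14.3% of cells with Pdgfra and in 43.2%, 36.8% and 48.4% of those without.

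**Figure D4:**
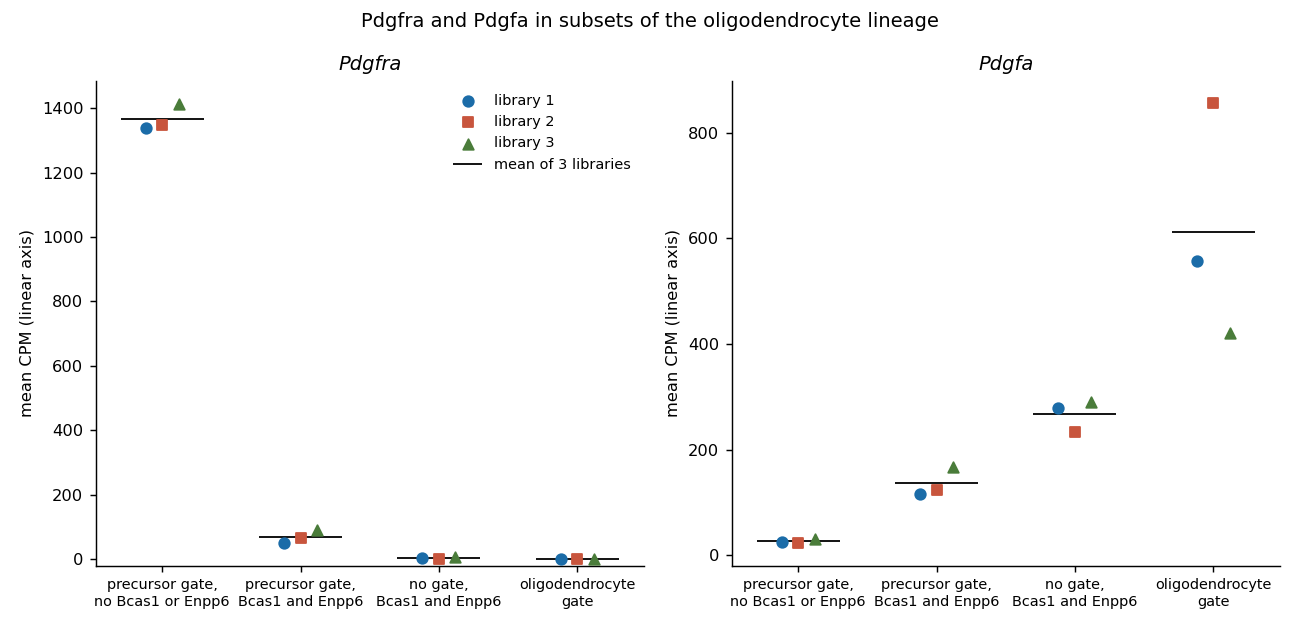
Mean CPM of Pdgfra (left) and Pdgfa (right) on linear axes in 4 subsets of the oligodendrocyte lineage, with 1 symbol per library and a black line at the mean. Pdgfra is at 1366 in precursors without Bcas1 or Enpp6 and at 0 in oligodendrocytes, and Pdgfa goes from 26.2 to 611 over the same subsets.

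The planned test of oligodendrocytes against precursors asked for 10 cells per library, which the 25 oligodendrocytes did not reach. In a fit added later with a minimum of 5, Pdgfa was higher (3.73 ± 0.20, adjusted p = 8.73e-12). Pdgfra was lower (adjusted p = 1.41e-16) and at 0 in every oligodendrocyte, so no fold is given. Kdr and Nrp1 were at 0 there too and passed in the fit, but precursors had them in only 1.58% and 6.42% of cells, under the 12% that 0 of 25 allows, so a difference was not detectable at this depth. In that fit 58.7% of 9875 genes passed, 12.2% higher and 46.5% lower, against 1 and 3 of the 8 members, Kdr and Nrp1 among the 3. Of the 10 genes listed for PDGF activation and signalling 2 were higher and 5 lower (median −0.79, and −0.57 over all genes). Dusp6 and Spry4 were at 0 in oligodendrocytes, against 179 ± 0.620 and 121 ± 10.1 CPM in precursors. Ptpn11, the phosphatase SHP2, was higher (2.90 ± 0.23). Sema3e, a semaphorin, was at 87.2 ± 3.92 CPM in oligodendrocytes and 2.38 ± 0.939 in precursors.

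Dividing precursors, 346 cells with Mki67 and Top2a, were compared with 2279 that had neither. Pdgfra was at 1119, 1109 and 1225 CPM in the former and 1169, 1120 and 1274 in the latter, overlapping ranges (log2 difference −0.04 ± 0.18, adjusted p = 0.946). Pdgfa gave 34.4 ± 4.64 against 36.3 ± 3.59 CPM (−0.06 ± 0.18, adjusted p = 0.918) and Vegfa 27.9 ± 6.93 against 22.7 ± 3.38 (0.20 ± 0.21, adjusted p = 0.677). None of the 8 members passed limma's adjusted threshold and 1, Nrp1, was under 0.05 before adjustment, where 17.1% of all 9977 genes passed, 11% higher and 6.12% lower. The sign of the Pdgfra difference turned when values were not scaled per cell (0.22), and dividing cells had more detected genes (a median of 3498 against 2607).

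Pericytes, highest in Pdgfrb, were set against endothelium, highest in Pdgfb. Pericytes were higher in Pdgfrb (6.23 ± 0.16, adjusted p = 5.29e-15) and Pdgfa (0.79 ± 0.15, adjusted p = 1.90e-04) and lower in Pdgfb (−3.60 ± 0.19, adjusted p = 3.84e-11), Flt1 (−4.18 ± 0.25, adjusted p = 1.75e-10), Kdr (−5.81 ± 0.12, adjusted p = 5.54e-16) and Nrp1 (−1.02 ± 0.14, adjusted p = 1.13e-05). Vegfa also passed, from 7.49 against 1.42 CPM, but not without library 1 (adjusted p = 0.148). Thus 3 of 8 members were higher and 4 lower, where 45.7% of all genes passed, 28.4% higher and 17.3% lower. Of the 10 genes listed for PDGF activation and signalling 5 were higher and 3 lower (median 0.67, and 0.14 over all genes). Pik3r1 (3.32 ± 0.17), Spry2 (2.93 ± 0.23) and Spry4 (1.82 ± 0.31) were higher. Of 5 angiopoietin genes 4 were lower, the receptors Tek (−3.47 ± 0.17) and Tie1 (−3.61 ± 0.30), the phosphatase Ptprb (−5.55 ± 0.18) and the ligand Angpt2 (−1.69 ± 0.20). The ligand Angpt1 was higher (2.01 ± 0.14), and both ligands were named after their values were seen. Of 7 leading-cell genes of growing vessels 6 were lower, with Apln at −5.07 ± 0.11. Among other members of the families Flt4, the lymphatic VEGF receptor, was at −2.97 ± 0.07, Pdgfd at −2.74 ± 0.17 and Vegfc at −2.53 ± 0.16.

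Smooth muscle was higher than pericytes in Pdgfa, 8.65 times by mean CPM (2.84 ± 0.15, adjusted p = 2.75e-11), and in Pdgfb (1.24 ± 0.19, adjusted p = 2.89e-05), and lower in Pdgfrb, as given above. In the fit 2 of the 8 members were higher and 5 lower, where 36.8% of all genes passed, 15.4% higher and 21.4% lower. Besides Pdgfrb, Nrp1 was among the 5 (−0.40 ± 0.14, adjusted p = 0.0270), but not without library 2 (0.196) or library 3 (0.211). The other members of the 5 rest on few cells: Pdgfra and Kdr were detected in none of the 45 smooth muscle cells and in 3.00% and 3.48% of pericytes, under the 6.67% that 0 of 45 allows, and Vegfa in 1 cell against 3.72% of pericytes. For these 3 genes a difference was not detectable at this depth. With the 60 cells that passed both mural gates counted as smooth muscle, an alternative chosen after seeing the data, 3 members passed, Pdgfa, Pdgfb and Pdgfrb. With these 2 classes alone in the fit Pdgfb did not pass (adjusted p = 0.168). Of the 10 genes listed for PDGF activation and signalling none was higher and 4 were lower. Spry2 was at −2.19 ± 0.23 and Plat, a protease that activates PDGF-C, at −1.79 ± 0.16. Angpt2, an antagonist of Angpt1, was higher (2.38 ± 0.20), as was Pgf, a VEGFR1 ligand (1.61 ± 0.24, 258 ± 85.2 against 75.4 ± 7.71 CPM).

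Endothelium, highest in the VEGF receptors, was set against astrocytes, highest in Vegfa. Endothelium was higher in Flt1 (6.81 ± 0.25, adjusted p = 2.54e-13), Kdr (6.21 ± 0.12, adjusted p = 3.13e-16), Pdgfb (3.82 ± 0.19, adjusted p = 1.71e-11) and Nrp1 (2.36 ± 0.14, adjusted p = 2.58e-10). Pdgfa passed too (0.46 ± 0.15, adjusted p = 0.0131), but not without library 2 (0.0866) or library 3 (0.156). With Vegfa and Pdgfrb lower, 5 of 8 members were higher and 2 lower, where 57.9% of all genes passed, 24.1% higher and 33.8% lower. Among 7 other ligands and receptors 4 were higher and 3 lower, with Vegfb, a VEGFR1 ligand, at 3.64 ± 0.641 CPM in endothelium and 104 ± 3.26 in astrocytes. Of 9 oxygen-response genes 4 were higher, led by Adm (4.53 ± 0.23), a vasodilator peptide, and the glucose transporter Slc2a1 (3.81 ± 0.35), and 3 were lower (median 0.40, and −0.13 over all genes). Dusp6 was higher (2.56 ± 0.28) and Spry2 lower (−3.56 ± 0.23) among the 10 genes listed for PDGF activation and signalling. Of that list 6 were higher and 2 lower, in an endothelium with Pdgfra at 4.75 and Pdgfrb at 1.77 CPM. Plxnd1, an endothelial semaphorin receptor, was higher (3.63 ± 0.32).

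Neuroblasts and microglia were also set against astrocytes. In neuroblasts 4 of 8 members were lower and none higher, where 56.1% of all genes passed, 22.9% higher and 33.2% lower: Vegfa (−3.17 ± 0.19, adjusted p = 1.74e-10), Pdgfrb (−2.07 ± 0.16, adjusted p = 9.93e-09), Nrp1 (−1.89 ± 0.14, adjusted p = 4.96e-09) and Pdgfa (−0.75 ± 0.15, adjusted p = 3.33e-04). Of the other family genes 6 of 7 were lower. In microglia Nrp1 was higher (1.33 ± 0.14, adjusted p = 4.86e-07), Pdgfb was higher as given above, and Vegfa (−3.61 ± 0.19, adjusted p = 3.00e-11) and Pdgfrb (−2.02 ± 0.16, adjusted p = 1.31e-08) were lower. That made 2 higher and 2 lower of 8, where 58.7% of all genes passed, 19.1% higher and 39.6% lower. Of the other family genes 1 of 7 was higher and 5 were lower.

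Endothelial cells with Esm1 or Apln, genes of the leading cells of sprouts, were compared with those that had neither. There were 424 of the former and 330 of the latter, with medians of 2839.5 and 2860.5 detected genes. Pdgfa was at 8.67, 5.87 and 1.57 CPM in the former against 27.6, 35.5 and 43.7, with no overlap (log2 difference −1.58 ± 0.18, adjusted p = 7.39e-07). Nrp1 was at 335, 318 and 334 against 181, 202 and 202 CPM, again apart (0.73 ± 0.15, adjusted p = 0.00184), though without library 2 its adjusted p was 0.0697. Flt1 was at 1434, 1378 and 1572 against 1897, 1874 and 2084 CPM, lower in each library but not past the threshold (−0.42 ± 0.23, adjusted p = 0.316); it passed with 100 CPM added in place of 10 (adjusted p = 0.00706). Pdgfb (153 ± 11.6 against 132 ± 9.75, adjusted p = 0.648) and Kdr (1006 ± 14.5 against 952 ± 95.4, adjusted p = 0.846) did not pass. So 1 of 8 members was higher and 1 lower, where 7.2% of 9977 genes passed, 3.11% higher and 4.09% lower. Angpt2, which loosens vessels for sprouting, was higher (2.60 ± 0.21), as was Adm (1.14 ± 0.24). Vegfc (−2.79 ± 0.18), Unc5b (−1.66 ± 0.22) and Sema3c (−1.06 ± 0.20) were lower. Of 6 further leading-cell genes tested, 2 were higher, 3 did not pass and 1, Unc5b, was lower. The split thus did not part these genes in 1 direction.

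**Figure D5:**
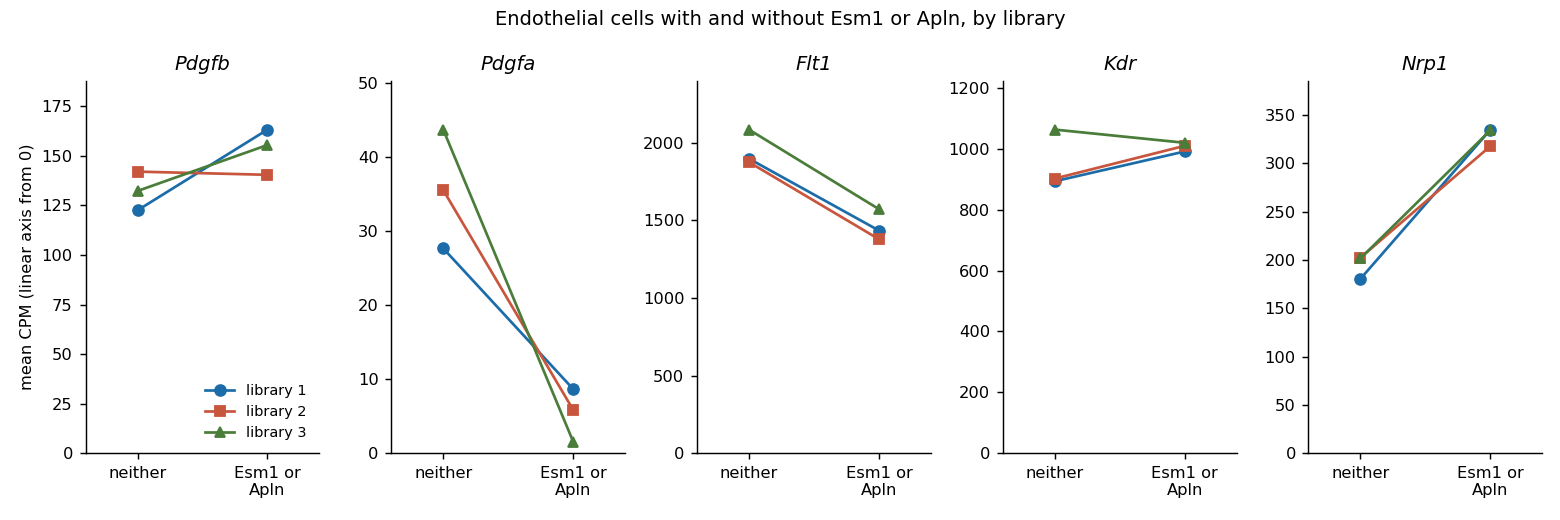
Mean CPM (linear axes from 0) of 5 genes in endothelial cells with neither Esm1 nor Apln and with at least 1 of them, with lines joining the values of the same library. Nrp1 is higher and Pdgfa lower in all 3 libraries, while Pdgfb and Kdr do not move the same way in all of them.

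The genes whose pattern was most like that of each member were ranked by Pearson's r over 21 values (7 classes in 3 libraries, which share libraries and classes) among 4036 genes with at least 100 CPM in some class. For Pdgfra they were Tnr (r = 0.995), Npas1 (0.995) and Resp18 (0.993), all highest in precursors. For Pdgfrb they were Lama2 (0.995), Lhfp (0.987) and Foxs1 (0.983), highest in pericytes, and for Vegfa the tissue factor gene F3 (0.987), Adhfe1 (0.982) and Trim9 (0.975), highest in astrocytes. Kdr had AU021092 (0.998), Tmem252 (0.997) and Ushbp1 (0.997). Flt1 had Gpr4 (0.982), Apold1 (0.977) and Jcad (0.974), and Pdgfb had Klf2 (0.959), Egfl7 (0.952) and Atf3, all highest in endothelium. Nrp1 was nearest to Nid2 (0.978), Pdgfa to Sytl2 (0.972) and Pdgfc to Igfbp2 (0.937). Oligodendrocytes, where Pdgfa was highest, were not among the 7 classes, and Sytl2 was highest in smooth muscle.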

How the data were processed

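Cells of 3 libraries were captured on the 10x Genomics Chromium, per the labels' protocols, which also mention flash freezing and Trizol. The tools Seurat, Cell Ranger and CASAVA 1.8 and the build mm10 are listed, per the submitters' processing notes. The values deposited by the authors are natural log units: all 34958786 above 0 are ln(1 + a whole number). Those numbers sum to 4422 to 8135 per cell, so they are read as counts already corrected for depth, by a method not given in the sources used here, and original depth is unknown.

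Corrected counts were scaled per cell to 1000000 and averaged per class and library. Scrublet (scanpy 1.11.5) marked 287 cells as doublets. They were kept, and 24.6% of cells in several classes, which were dropped, were among them. limma 3.58.1 (R 4.3.3; lmFit, eBayes with trend) was fitted to log2(CPM + 10), with library as a block because cells of all classes come from the same libraries. It used the 9780 genes whose mean over classes reached 10 CPM, without the 16 genes of the gates, and Benjamini-Hochberg adjustment over all genes and pairs, threshold 0.05. A second fit (9977 genes) held the subsets. The script was tested on simulated data. Oligodendrocytes had under 10 cells per library and entered only an added fit. Each member was described in every class, 6 lists (54 of 55 genes in the table) were counted, and the 3 largest folds past the threshold per list and comparison could be named, as could the 3 genes most like each member. Folds of members are given where they passed or reached 20 CPM in either group. Members and lists were chosen with earlier results of these data known. Motifs were searched in RefSeq windows (GRCm38.p6). Binomial floors use 3 counts and cover counting error only. Alternatives were the pseudocount (1 or 100 CPM), filter, scaling, gates, minimum number of cells, doublets, thinning, the block and leaving out each library.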

Additional observations from a re-analysis of the deposited data

How the results depend on the processing

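Of 537 refitted log2 folds of members, 505 kept their direction and side of the threshold, 24 lost the threshold, 2 gained it and 6 turned. Those that turned were all in dividing against non-dividing precursors and never past the threshold: Pdgfa was at 0.053 and Pdgfra at 0.22 when not scaled per cell, Vegfa at −0.0045 when centred on the median gene, Pdgfa at 0.16 with gates of 2 corrected counts, and leaving out 1 library gave −0.023 to 0.32 for Vegfa (lowest without library 1) and −0.11 to 0.025 for Pdgfa (highest without library 2). Counts of genes past the threshold in precursors against astrocytes went from 4127 to 6449 with no filter (more genes tested), 7512 with only 2 classes and 6275 with at least 20 cells. In smooth muscle against pericytes they went from 3597 to 794 with only 2 classes, a fit that takes no spread from the other classes. Leaving out each library gave 979 to 1186 for dividing precursors (1708 with all) and 339 to 482 for Esm1 or Apln endothelium (718 with all), lowest without library 2. The cause was not tested beyond the number of genes or samples.

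Without the library block the counts were 4080 for precursors against astrocytes and 4432 for pericytes against endothelium, and the block changed no call of a member. Centring moved the split of genes higher and lower from 2660 and 1467 to 1924 and 1810 (precursors against astrocytes), 2358 and 3302 to 2951 and 2603 (endothelium), 2237 and 3246 to 3280 and 2335 (neuroblasts), 1872 and 3871 to 3061 and 2395 (microglia), 1097 and 611 to 704 and 1336 (dividing precursors) and 310 and 408 to 418 and 331 (Esm1 or Apln). Leaving values unscaled moved it from 2774 and 1696 to 2066 and 2198 (pericytes), from 1503 and 2094 to 2219 and 1491 (smooth muscle) and to 1845 and 245 (dividing precursors). No called member turned.

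Calls lost were mostly in smooth muscle: Vegfa under 7 and Nrp1 under 5 settings, Pdgfra under 3, Pdgfb and Kdr under 1 each, while Flt1 passed without library 2 (adjusted p = 0.0178). Elsewhere Pdgfa was lost with 100 CPM added in endothelium (0.104) and neuroblasts (0.0605). Oligodendrocytes were run in the added fit only, and a minimum of 20 cells left no smooth muscle to compare. With 3 libraries, 45 smooth muscle cells and 25 oligodendrocytes, small differences in those classes could not be resolved, and the depth before correction is not known.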

Other observations

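Cells outside the classes also carried members of the families. The 72 cells of no class with Dcn and Col1a1, genes of fibroblasts, held Pdgfra at 200, 186 and 146 CPM in libraries 1, 2 and 3, with 64.2% of cells above 0. They also held Pdgfrb at 78.0 ± 23.0 CPM, Vegfa at 64.4 ± 16.8 and Nrp1 at 47.6 ± 9.81 (SD, n = 3), and no Flt1. In this set Pdgfra was above its level in every class but the precursors, in each library. The set was drawn after values had been seen.

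The 93 cells that passed the pericyte and endothelial gates and no other held both the mural receptor and the endothelial ones. Pdgfrb was at 377 ± 117 CPM, Flt1 at 1240 ± 139 and Kdr at 801 ± 68.6. Pdgfa in them was at 10.6 ± 10.6. Whether these are attached pairs of cells was not tested.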
